A study of Homo sapiens with 6 samples.

Results

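The genes described here are the expressed long noncoding RNA genes of YAPC cells, a human line of pancreatic ductal adenocarcinoma (PDA). They were selected on their names and on their measured level. A gene was taken where its name starts with LINC and a digit, ends in -AS1, -AS2 or -IT1, or is UCA1, H19, NEAT1, MALAT1, MEG3 or HOTAIR, and where its mean over the 6 libraries was at least 1 FPKM, entries that merge several names left aside. FPKM is the number of fragments scaled to the length of the transcript and to the fragments of the library, so levels of different genes can be set side by side per length. The rule kept 302 genes of the 12493 tested, out of 1860 genes that carry such a name. Of the 302, 203 are named as antisense to another gene (-AS1 or -AS2), 94 are intergenic by name (LINC), 2 are named as lying in an intron (AGAP1-IT1 and CRHR1-IT1), and UCA1, NEAT1 and MALAT1 complete the set. HOTAIR stayed outside with a mean of 0.843 FPKM, and H19 and MEG3 were not analysed here. C1RL-AS1, KIF25-AS1 and WWC2-AS1, each at a mean of 1.01 FPKM, lay just inside the threshold. ATP2A1-AS1, LMO7-AS1 and HMGN3-AS1 lay just outside it at 0.979, 0.980 and 0.989 FPKM. The mean level chose the genes, so levels are given as a description without a test. The comparison between the groups was not used in the choice, except that a gene which reached the mean through its higher group alone had to differ, and 38 of the 302 reached 1 FPKM in only 1 of the groups.

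The study compared 3 libraries of YAPC-iGLI2 cells, which carry GLI2 in the doxycycline (Dox) inducible retroviral vector pRetroX-Tight-Puro, with 3 libraries of YAPC-iEV cells, which carry the empty vector (EV). Both groups were kept in Dox for 6 days, so Dox itself is shared and the presence of the GLI2 insert is what differs. The comparison asks which transcripts change when GLI2, a transcription factor of the Hedgehog pathway, is induced in a PDA line of the classical subtype. No source used here says whether the cells were a clone or a pool, or whether replicates were separate cultures, so p-values measure the spread between these libraries, which may be technical. GLI2 was at 0.466, 0.412 and 0.344 FPKM in the iEV libraries and at 94.5, 207 and 195 FPKM in the iGLI2 libraries, with the construct and the cells' own gene counted together. The epithelial markers KRT19, EPCAM and CDH1 were above 50 FPKM in all 6 libraries, and EPCAM and CDH1 each rose by 0.37 on the log2 scale in iGLI2 cells. KRT8 and KRT18 were listed at 0 in all 6, which in this table is not read as absence. Summed over 5 markers each, fibroblast genes were at 1.35 to 1.57 FPKM in iEV and 2.30 to 3.01 FPKM in iGLI2 libraries, nearly all from COL1A1, itself higher in iGLI2 cells, with DCN listed at 0, and endothelial genes were at 0.487 to 0.537 and 0.467 to 0.654 FPKM. Leukocyte genes were at 13.6 to 17.7 and 8.70 to 17.1 FPKM, nearly all from LYZ and CD68, with PTPRC under 0.05 FPKM in every library. The part of these markers in the results was not tested. In a bulk sample, fewer cells with a transcript and less of it in each cell cannot be told apart.

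Long noncoding RNAs are transcribed and spliced much like messenger RNAs but do not encode a long protein, and many act in the nucleus, on chromatin or in RNA bodies, while others bind proteins or microRNAs in the cytoplasm. An antisense RNA is read from the strand opposite to a named sense gene, often starting head to head with it from a shared promoter or lying within it, and an intergenic one is named for standing apart from protein-coding genes. In pancreatic and other carcinomas several of them, UCA1, AFAP1-AS1 and LINC00152 (CYTOR) among them, are known as transcripts of raised level in tumours.

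Induction of GLI2 was accompanied by changes in 47 of the 302 genes (15.6%) at an adjusted p under 0.05 in limma, against 21.9% of all genes tested. Such a gene is said to be called, to rise or to fall. Fold changes are differences of mean log2(FPKM + 1), iGLI2 minus iEV, a scale that understates the fold of genes with low values, and p-values were adjusted over all 12493 genes. Of the 47, 27 were higher in iGLI2 cells (8.94% of the set, against 10.1% of all genes) and 20 were lower (6.62%, against 11.8%). A 2-fold change on this scale was reached by 8 of the 47, against 527 of the 2742 genes called in all. The median absolute log2 fold change of the genes called was 0.54 in the set and over all genes. Of the 8, 3 were among the 264 genes whose mean reached 1 FPKM in both groups and 5 among the 38 that reached it in a single group. The groups did not overlap in 121 of the 302 (40.1%), against 42.0% of all genes, and all 47 genes called were among them. Of the 264, 19 rose and 16 fell. Of the 38, 8 were called higher and 4 lower (31.6%), against 39.5% of the 569 genes tested that likewise reached 1 FPKM in a single group. These 12 had to differ to be included, so they are described below by their values, without a test. The median log2 fold change was 0.01 over the set and -0.01 over all genes. By class, 14 antisense genes rose and 13 fell of 203, 12 LINC genes rose and 7 fell of 94, and of the other 5 only UCA1 changed.

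**Figure D1:**
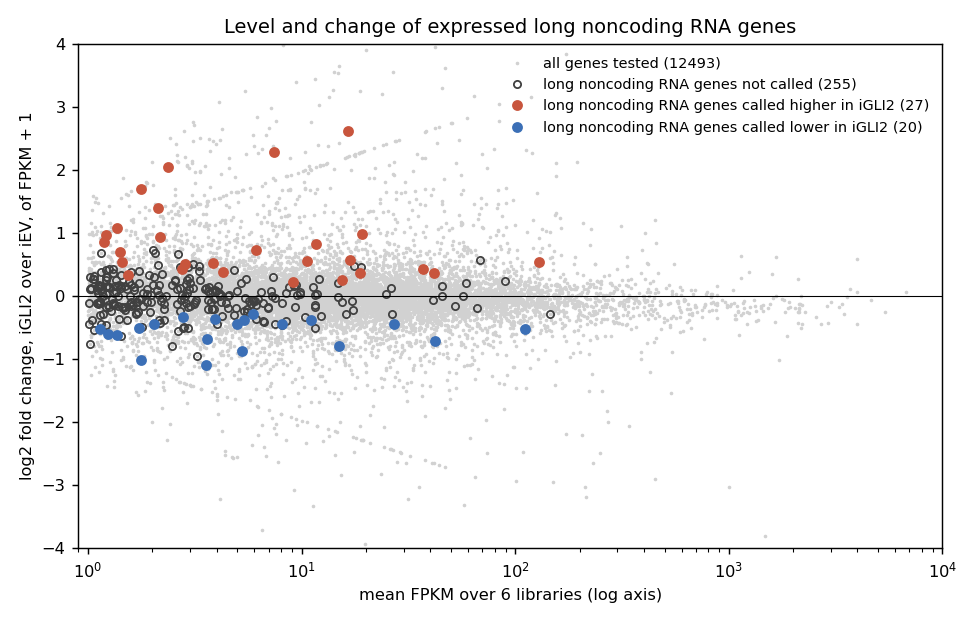
Mean level over the 6 libraries (FPKM, log axis) against the log2 fold change of FPKM + 1 in iGLI2 over iEV cells, with all 12493 genes tested in grey (24 lie outside the axes), the 255 long noncoding RNA genes that were not called as open circles, and those called higher (27, red) or lower (20, blue) as filled circles. Most open circles lie at the left, at low levels and close to 0, and the 5 largest rises stand between 1.39 and 2.62.

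The share called was larger at higher levels. It was 12 of 114 (10.5%) at a mean of 1 to 2 FPKM and 13 of 100 (13%) at 2 to 5 FPKM, where 18.6% and 24.1% of all genes of that level were called. The calls at these levels include genes that reached 1 FPKM in a single group and so had to differ to be included. SOX21-AS1, DOCK9-AS2, GLIS3-AS1 and USP30-AS1 are among them at 1 to 2 FPKM. The shares at low levels are therefore a description. At 5 to 20 FPKM it was 16 of 69 (23.2%) and at 20 FPKM or more 6 of 19 (31.6%), where 21.4% and 22.3% of all genes were called. The median standard error of the log2 fold change was 0.124 in the set and 0.102 over all genes.

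**Figure D2:**
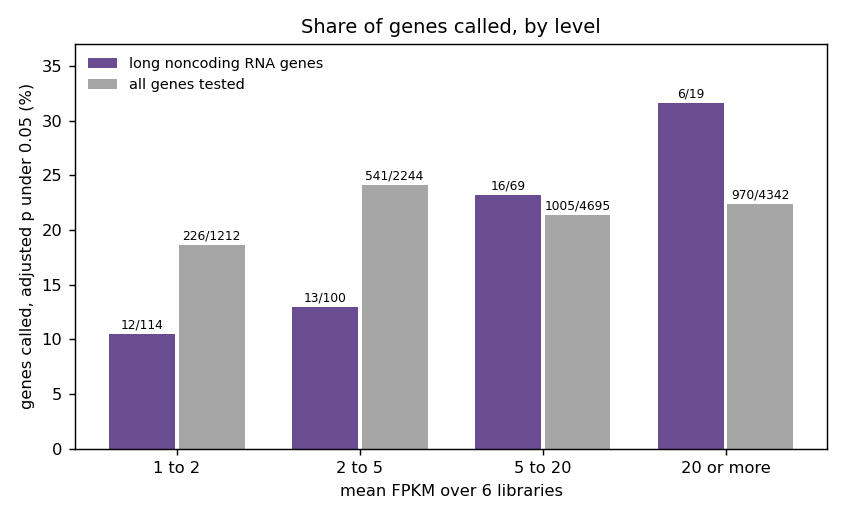
Share of genes (%) with an adjusted p under 0.05 (limma) in 4 classes of mean level over the 6 libraries (FPKM), for the long noncoding RNA genes (purple) and for all genes tested (grey), with the number called and the number in the class above each bar. The purple bars lie below the grey ones at 1 to 5 FPKM and above them from 5 FPKM on, where the classes hold 69 and 19 of the long noncoding RNA genes. The calls at low levels include genes that reached 1 FPKM in a single group and so had to differ to be included.

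The stretches around the RefSeq starts of 5 genes are shown. Only genes that passed the test with each library left out in turn and have an entry in the promoter table used were considered. Among them, these 5 had the 4 largest rises and the largest fall. Of the 5, LINC01468 and KCNJ2-AS1 reached 1 FPKM in iGLI2 cells alone, so they had to be higher there to be included. Each stretch runs from 250 bases before to 50 bases after the RefSeq start in GRCh38.p14, written in the direction of transcription. The gene positions given further below are from GENCODE on GRCh37. The starts in the 2 annotations were not compared, so a stretch may lie inside the span given for its gene. They lie at chr10:71218179-71218478 on the minus strand (UNC5B-AS1), chr10:52470484-52470783 on the minus strand (LINC01468, which RefSeq calls LNCAROD), chr17:70169353-70169652 on the minus strand (KCNJ2-AS1), chr12:30795431-30795730 on the plus strand (LINC00941) and chr11:9758043-9758342 on the plus strand (SBF2-AS1). Capitals mark a match with up to 1 mismatch to GACCACCCA, the consensus that GLI factors are known to bind, on either strand.
UNC5B-AS1: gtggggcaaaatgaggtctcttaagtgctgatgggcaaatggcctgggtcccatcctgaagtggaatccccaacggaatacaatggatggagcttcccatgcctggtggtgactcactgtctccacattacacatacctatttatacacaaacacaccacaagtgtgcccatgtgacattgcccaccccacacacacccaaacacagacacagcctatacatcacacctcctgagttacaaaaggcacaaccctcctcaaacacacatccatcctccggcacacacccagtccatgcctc
LINC01468: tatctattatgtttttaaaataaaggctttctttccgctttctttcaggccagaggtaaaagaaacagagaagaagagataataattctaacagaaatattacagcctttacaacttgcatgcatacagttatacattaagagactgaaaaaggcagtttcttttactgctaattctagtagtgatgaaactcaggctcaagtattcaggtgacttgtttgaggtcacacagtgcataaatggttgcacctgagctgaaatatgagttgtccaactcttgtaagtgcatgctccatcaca
KCNJ2-AS1: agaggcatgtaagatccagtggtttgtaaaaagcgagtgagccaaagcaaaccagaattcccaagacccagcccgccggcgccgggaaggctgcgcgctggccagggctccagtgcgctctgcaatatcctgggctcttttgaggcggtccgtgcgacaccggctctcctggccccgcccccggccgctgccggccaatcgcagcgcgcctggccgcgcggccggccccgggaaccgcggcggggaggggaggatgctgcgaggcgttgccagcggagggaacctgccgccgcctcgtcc
LINC00941: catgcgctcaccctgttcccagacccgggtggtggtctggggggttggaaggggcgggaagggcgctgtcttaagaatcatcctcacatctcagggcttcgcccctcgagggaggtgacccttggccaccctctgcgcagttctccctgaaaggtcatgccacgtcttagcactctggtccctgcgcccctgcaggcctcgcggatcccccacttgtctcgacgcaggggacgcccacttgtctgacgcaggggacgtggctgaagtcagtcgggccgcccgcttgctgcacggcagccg
SBF2-AS1: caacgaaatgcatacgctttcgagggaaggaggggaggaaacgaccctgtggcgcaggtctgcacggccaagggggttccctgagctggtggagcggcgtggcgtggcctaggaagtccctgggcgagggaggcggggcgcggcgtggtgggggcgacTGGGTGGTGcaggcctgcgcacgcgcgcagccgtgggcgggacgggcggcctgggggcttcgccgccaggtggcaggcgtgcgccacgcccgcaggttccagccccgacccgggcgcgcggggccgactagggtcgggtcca
The 4 stretches of genes called higher hold no such match, and the stretch of SBF2-AS1, which fell, holds 1 on the strand opposite to transcription. In base composition the 5 differ widely. The stretch of LINC01468 is 36% G and C with 1 CpG, and that of UNC5B-AS1 is 51.3% with 2 CpGs. LINC00941, KCNJ2-AS1 and SBF2-AS1 have 66.0%, 70.0% and 74.3% with 21, 33 and 36 CpGs. Over all 233 genes of the set with an entry, GACCACCCA itself was found in 0, against 0.236% of the 35116 promoters in the table, and a match with up to 1 mismatch was found in 22 (9.44%), against 6.74% of all promoters. Such a match was present in 2 of 20 genes that rose (MMP24-AS1 and NOP14-AS1) and in 1 of 12 that fell (SBF2-AS1). The median G and C content was 64.8% for the genes that rose and 51.7% for those that fell, beside 64.0% for all 233 and 58.7% for the whole table. The stretches used for TNRC6C-AS1 and LINC00341, counted among the genes that rose, are those of TMC6 and SYNE3, matched by name. Both stay in the count and in the median given. A match of letters in this window is a description and not a binding site.

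Most of the 302 genes were expressed at a low level. Their median mean was 2.80 FPKM, against 11.4 FPKM for all genes tested, 214 were under 5 FPKM, and only 19 reached 20 FPKM. Among those with the highest mean level were PCNA-AS1 (145 FPKM), LINC00657 (128), LINC01420 (89.2), LINC01137 (68.5), FBXO22-AS1 (66.4), LINC00493 (59.0), EPB41L4A-AS1 (56.8), WAC-AS1 (52.4) and LINC00673 (45.1). PCNA-AS1 and FBXO22-AS1 share a locus in the table with their sense genes, PCNA at a mean of 123 FPKM and FBXO22 at 15.3 FPKM. Their exon overlap with these could not be measured in the annotation used. The library kit does not mark strand, so how much of either value comes from the sense gene is unknown. LINC00657 is NORAD, an abundant cytoplasmic RNA that binds PUMILIO proteins. It was at 105, 105 and 103 FPKM (iEV 1 to 3) against 174, 148 and 136 FPKM (iGLI2 1 to 3). All 3 iGLI2 libraries lay above all 3 iEV libraries, and LINC00657 rose (log2 fold change 0.54, SE 0.10, adjusted p = 0.0146), but missed the threshold without iEV replicate 2, iEV replicate 3 or iGLI2 replicate 2 (adjusted p = 0.0638, 0.0635 and 0.0538). PCNA-AS1, opposite the gene of the DNA sliding clamp, was at 139, 175 and 161 FPKM in iEV libraries against 97.4, 141 and 156 FPKM in iGLI2 libraries, and its groups overlapped (log2 fold change -0.29, SE 0.19, adjusted p = 0.346). LINC01420 and LINC00493, which RefSeq now lists as genes of small proteins, were higher in every iGLI2 library than in any iEV library but missed the threshold (log2 fold changes 0.24 and 0.21, adjusted p = 0.0670 and 0.152). For LINC01137, EPB41L4A-AS1, WAC-AS1, FBXO22-AS1 and LINC00673 the groups overlapped, with log2 fold changes between -0.18 and 0.57 and adjusted p between 0.124 and 0.987.

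NEAT1, the scaffold of nuclear paraspeckles, and MALAT1, an RNA of nuclear speckles, spread widely within each group. NEAT1 was at 36.4, 22.1 and 28.6 FPKM (iEV 1 to 3) against 32.5, 20.2 and 18.9 FPKM (iGLI2 1 to 3). MALAT1 was at 16.4, 10.4 and 13.8 FPKM (iEV 1 to 3) against 13.03, 7.99 and 7.24 FPKM (iGLI2 1 to 3). In both genes and in both groups replicate 1 was the highest, the groups overlapped, and no change passed the test (log2 fold change -0.28, SE 0.26, adjusted p = 0.479 for NEAT1, and log2 fold change -0.50, SE 0.25, adjusted p = 0.208 for MALAT1). The 95% confidence intervals of the log2 fold changes, -0.91 to 0.35 and -1.11 to 0.10, both include 0. Without iGLI2 replicate 1, MALAT1 passed the threshold at a log2 fold change of -0.74 (adjusted p = 0.0444).

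The share of short RNA genes and the total FPKM of the libraries moved with the groups. Short RNA genes held 45.4% to 48.4% of the total FPKM in iEV and 38.9% to 40.4% in iGLI2 libraries, and total FPKM was 981341 to 1082684 and 803145 to 889555. With the short RNA genes left out and the libraries rescaled, 57 of the 301 long noncoding RNA genes tested were called higher and 23 lower. Of all genes, 3019 of 12169 were called, so the share called in the set was no longer below that of all genes. Of the calls in the set 71.3% were higher in place of 57.4%, and 59.4% in place of 46.0% over all genes. Quantile normalization turned the balance, with 25 called higher and 30 lower (45.5% of the calls higher). Of the 47 genes, 44 were also called with the short RNA genes left out, 17 of them lower, and none of the 47 changed sign. A single library also moved the counts by more than 1.5 times. The calls were 13 higher and 8 lower without iEV replicate 2, 14 and 6 without iEV replicate 3, 42 and 23 without iGLI2 replicate 1, 13 and 8 without iGLI2 replicate 2, and 13 and 12 without iGLI2 replicate 3. The genes that were called with each of the 6 libraries left out number 15. UNC5B-AS1, FUT8-AS1, LINC01468, KCNJ2-AS1, LINC00941, SOX21-AS1, LINC01547, TNRC6C-AS1, NOP14-AS1 and LINC00998 were higher, and SBF2-AS1, LINC01091, LINC00847, MAPKAPK5-AS1 and AFAP1-AS1 were lower. LINC01468, KCNJ2-AS1 and SOX21-AS1 are among the 12 genes that had to differ to be included.

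**Figure D3:**
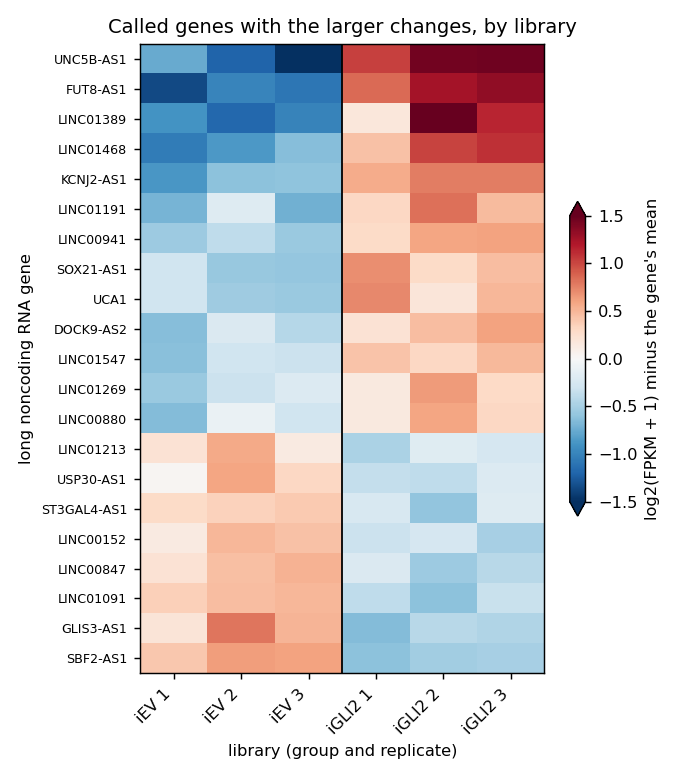
The 21 genes called at an adjusted p under 0.05 with a log2 fold change of at least 0.6 in either direction (rows, ordered by log2 fold change) in the 6 libraries (columns, 3 iEV and 3 iGLI2), coloured by log2(FPKM + 1) minus the gene's mean over the libraries, from blue (lower) to red (higher). In each row the 3 iGLI2 columns lie on 1 side of the 3 iEV columns, and the deepest colours are in UNC5B-AS1, FUT8-AS1 and LINC01389.

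The 2 largest rises were in antisense genes whose sense genes rose with them. UNC5B-AS1 lies in GRCh37 (hg19) on chromosome 10 from 72976977 to 72978051 on the minus strand (all gene positions are in this build), inside UNC5B, the gene of a netrin receptor. It was at 6.06, 4.18 and 2.03 FPKM (iEV 1 to 3) against 23.3, 31.4 and 31.7 FPKM (iGLI2 1 to 3). Every iGLI2 library lay far above every iEV library, although the iEV libraries also differed among themselves, and UNC5B-AS1 rose 7.04-fold in mean FPKM (log2 fold change 2.62, SE 0.32, adjusted p = 0.00334). UNC5B itself was at 2.54, 1.90 and 1.82 FPKM in iEV libraries against 18.5, 20.5 and 20.7 FPKM in iGLI2 libraries and rose as well (log2 fold change 2.77, SE 0.11, adjusted p = 0.000131). The antisense gene thus had the higher FPKM of the pair, with none of its annotated exonic bases on exons of the other strand. It lies inside UNC5B, however, and the library kit does not mark strand, so the strand of its reads is not known.

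FUT8-AS1 lies on chromosome 14 from 65877888 to 65879408 on the minus strand, at the start of FUT8, which encodes the enzyme of core fucosylation of proteins. It was at 1.45, 2.18 and 1.96 FPKM (iEV 1 to 3) against 10.3, 14.0 and 14.8 FPKM (iGLI2 1 to 3). The groups were far apart, and FUT8-AS1 rose 7.002-fold in mean FPKM (log2 fold change 2.29, SE 0.16, adjusted p = 0.000632). FUT8 was at 27.3, 33.3 and 32.7 FPKM in iEV libraries against 61.0, 86.6 and 84.9 FPKM in iGLI2 libraries and rose too (log2 fold change 1.28, SE 0.16, adjusted p = 0.00367). Of the exonic bases of FUT8-AS1, 54.2% lie on exons of the other strand, and the library kit does not mark strand, so reads there cannot be assigned to either gene.

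KCNJ2-AS1, on chromosome 17 from 68163102 to 68165545 on the minus strand, is opposite KCNJ2, the gene of an inward rectifier potassium channel. It was at 0.530, 0.823 and 0.842 FPKM (iEV 1 to 3) against 3.11, 3.74 and 3.76 FPKM (iGLI2 1 to 3), with no overlap (log2 fold change 1.39, SE 0.12). It reached a mean of 1 FPKM in iGLI2 cells alone, so it had to be higher there to be included. KCNJ2 was at 2.83, 3.25 and 3.25 FPKM in iEV libraries against 8.50, 9.59 and 9.44 FPKM in iGLI2 libraries and rose (log2 fold change 1.31, SE 0.08, adjusted p = 0.000381). SOX21-AS1, on chromosome 13 from 95355708 to 95455684 on the plus strand opposite the transcription factor gene SOX21, was at 0.690, 0.399 and 0.392 FPKM in iEV libraries against 2.37, 1.53 and 1.87 FPKM in iGLI2 libraries. It too reached 1 FPKM in iGLI2 cells alone (log2 fold change 0.96, SE 0.15), as did SOX21, at 0.556 ± 0.239 FPKM (iEV) against 1.78 ± 0.209 FPKM (iGLI2, SD, n = 3). SH3PXD2A-AS1 rose from 8.32 ± 1.12 to 12.8 ± 1.73 FPKM (SD, n = 3, log2 fold change 0.56, SE 0.12, adjusted p = 0.0259), and its sense gene, which encodes the podosome scaffold TKS5, rose with it (log2 fold change 0.45). Without iEV replicate 1, iEV replicate 2, iGLI2 replicate 2 or iGLI2 replicate 3 the adjusted p of SH3PXD2A-AS1 was 0.0774, 0.103, 0.0816 and 0.0773. As the library kit does not mark strand, the strand of the reads in these pairs is not known.

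**Figure D4:**
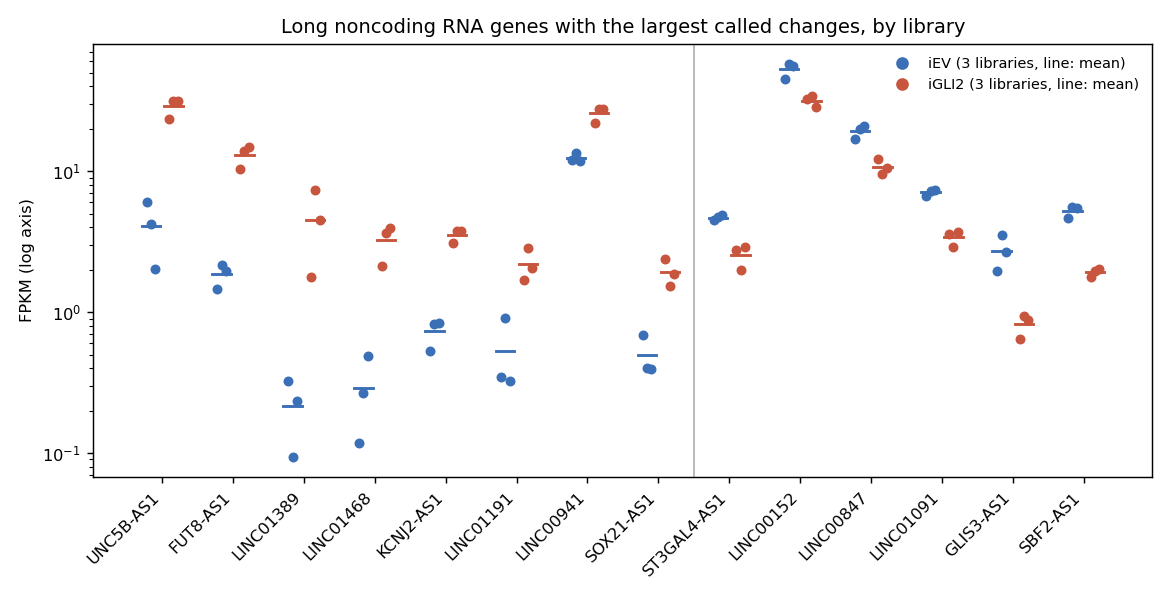
FPKM (log axis) in each library for the 8 largest rises and the 6 largest falls among the genes called, with 3 iEV (blue) and 3 iGLI2 (red) libraries as points and the mean as a line. The groups are separate in all 14 genes, 6 of which (LINC01389, LINC01468, KCNJ2-AS1, LINC01191, SOX21-AS1 and GLIS3-AS1) reached a mean of 1 FPKM in a single group, and LINC01389 and GLIS3-AS1 show a wide spread within a group.

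LINC01389, LINC01468 and LINC01191 are intergenic genes whose mean reached 1 FPKM in iGLI2 cells alone, so they had to be higher there to be included, and they are described without a test. LINC01389, on chromosome 1 from 47846600 to 47874149 on the minus strand, was at 0.323, 0.0932 and 0.234 FPKM (iEV 1 to 3) against 1.79, 7.31 and 4.47 FPKM (iGLI2 1 to 3). The groups were far apart, but the iGLI2 libraries themselves spread widely, with replicate 1 lowest and replicate 2 highest (log2 fold change 2.05, SE 0.39). LINC01468 lies on chromosome 10 from 54210634 to 54515269 on the minus strand, and its other name, LNCAROD, stands for activating regulator of DKK1. It was at 0.118, 0.266 and 0.487 FPKM (iEV 1 to 3) against 2.12, 3.64 and 3.93 FPKM (iGLI2 1 to 3), again far apart in the groups (log2 fold change 1.69, SE 0.21). LINC01191 was at 0.344, 0.908 and 0.325 FPKM in iEV libraries against 1.70, 2.86 and 2.04 FPKM in iGLI2 libraries (log2 fold change 1.07, SE 0.20).

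LINC00941, on chromosome 12 from 30908101 to 30955536 on the plus strand, was the most abundant of the genes that rose by about 2-fold. It was at 11.98, 13.5 and 11.9 FPKM (iEV 1 to 3) against 22.0, 27.6 and 27.7 FPKM (iGLI2 1 to 3), with a narrow spread in the iEV libraries, and rose (log2 fold change 0.99, SE 0.11, adjusted p = 0.00251). All of its exonic bases are also annotated to another unnamed gene of the same strand. LINC01547 was at 6.88, 8.90 and 8.75 FPKM in iEV libraries against 15.4, 14.1 and 16.04 FPKM in iGLI2 libraries and rose (log2 fold change 0.82, SE 0.11, adjusted p = 0.00439). LINC01269 was at 3.64, 4.47 and 4.94 FPKM in iEV libraries against 6.59, 9.65 and 7.44 FPKM in iGLI2 libraries and rose (log2 fold change 0.73, SE 0.15, adjusted p = 0.0228). It kept the call without iGLI2 replicate 1 but lost it without any other library, at adjusted p of 0.0569 to 0.0801. LINC00880, which reached 1 FPKM in iGLI2 cells alone, was at 0.481, 1.17 and 0.894 FPKM in iEV libraries against 1.57, 2.51 and 1.88 FPKM in iGLI2 libraries (log2 fold change 0.70, SE 0.19).

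UCA1, named for urothelial cancer and known to promote growth of carcinoma cells, is also a member of the basal-like PDA signature that the study used. It lies on chromosome 19 from 15939016 to 15947138 on the plus strand. It was at 1.42, 1.05 and 1.02 FPKM (iEV 1 to 3) against 3.90, 2.38 and 3.19 FPKM (iGLI2 1 to 3). The lowest iGLI2 library was above the highest iEV library, and UCA1 rose 2.72-fold in mean FPKM (log2 fold change 0.93, SE 0.16, adjusted p = 0.0115). Without iEV replicate 2 or iEV replicate 3 it missed the threshold, at adjusted p of 0.0540 and 0.0531.

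The largest falls were smaller than the largest rises. SBF2-AS1, on chromosome 11 from 9779815 to 9832882 on the plus strand opposite the myotubularin-related gene SBF2, had the largest fall. It was at 4.66, 5.55 and 5.46 FPKM (iEV 1 to 3) against 1.78, 1.97 and 2.02 FPKM (iGLI2 1 to 3). The highest iGLI2 library was well below the lowest iEV library, and SBF2-AS1 fell to 0.368 of its mean level in iEV cells (log2 fold change -1.09, SE 0.09, adjusted p = 0.000881). SBF2 was at 6.54 ± 0.303 FPKM (iEV) against 4.29 ± 0.389 FPKM (iGLI2, SD, n = 3) and fell too (log2 fold change -0.51, SE 0.08, adjusted p = 0.00753). GLIS3-AS1, opposite the gene of a zinc finger transcription factor, was at 1.95, 3.51 and 2.67 FPKM in iEV libraries against 0.648, 0.933 and 0.882 FPKM in iGLI2 libraries (log2 fold change -1.01, SE 0.17), with a wide spread among the iEV libraries. GLIS3-AS1 and GLIS3 (log2 fold change -0.51) both reached 1 FPKM in iEV cells alone, so they had to be lower in iGLI2 cells to be included. Of the exonic bases of GLIS3-AS1, 26.4% lie on exons of the other strand.

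LINC01091, on chromosome 4 from 124460181 to 124883859 on the plus strand, was at 6.61, 7.22 and 7.36 FPKM in iEV libraries against 3.56, 2.89 and 3.73 FPKM in iGLI2 libraries and fell (log2 fold change -0.88, SE 0.09, adjusted p = 0.00233). LINC00847 was at 16.8, 20.02 and 21.0 FPKM in iEV libraries against 12.2, 9.55 and 10.5 FPKM in iGLI2 libraries and fell (log2 fold change -0.79, SE 0.12, adjusted p = 0.00742). LINC00152 (CYTOR), a cytoplasmic RNA known from many carcinomas, was at 44.7, 57.9 and 55.6 FPKM (iEV 1 to 3) against 32.3, 33.9 and 28.4 FPKM (iGLI2 1 to 3). Its groups did not overlap, and it fell (log2 fold change -0.72, SE 0.12, adjusted p = 0.0110), but without iEV replicate 3 its adjusted p was 0.0540. ST3GAL4-AS1, now called GSEC, an RNA with a G-quadruplex, was at 4.47, 4.69 and 4.86 FPKM in iEV libraries against 2.78, 1.98 and 2.90 FPKM in iGLI2 libraries and fell (log2 fold change -0.69, SE 0.12, adjusted p = 0.0117), with an adjusted p of 0.0551 without iEV replicate 2 and 0.0564 without iEV replicate 3.

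AFAP1-AS1, described as raised in Barrett's oesophagus and in pancreatic cancer, was at 32.4, 30.3 and 31.2 FPKM (iEV 1 to 3) against 21.5, 23.3 and 23.2 FPKM (iGLI2 1 to 3). The libraries within each group lay close together, and AFAP1-AS1 fell by 0.45 on the log2 scale (SE 0.06, adjusted p = 0.00496). AFAP1, at 15.2 ± 1.79 FPKM (iEV) against 16.5 ± 0.335 FPKM (iGLI2, SD, n = 3), did not pass the test (log2 fold change 0.12, SE 0.09, adjusted p = 0.406). The difference within the pair was not tested. Reads on the 42.2% of the exonic bases of AFAP1-AS1 that face exons of the other strand cannot be assigned to either gene. MAPKAPK5-AS1 was at 9.12, 10.2 and 9.06 FPKM in iEV libraries against 6.73, 6.34 and 6.86 FPKM in iGLI2 libraries and fell (log2 fold change -0.45, SE 0.07, adjusted p = 0.00725). RNF144A-AS1, ITGB2-AS1 and TMEM9B-AS1 fell by 0.50, 0.45 and 0.44 on the log2 scale without overlap of the groups. ITGB2-AS1 and TMEM9B-AS1 kept the call without iEV replicate 1 but lost it without any other library, at adjusted p between 0.0675 and 0.157, and RNF144A-AS1 lost it without iEV replicate 3, iGLI2 replicate 2 or iGLI2 replicate 3 (adjusted p = 0.0522, 0.0505 and 0.0508). USP30-AS1, LINC01213 and SLC8A1-AS1 reached 1 FPKM in iEV cells alone, so they had to be lower in iGLI2 cells to be included (log2 fold changes -0.62, -0.61 and -0.53).

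Antisense genes were next set beside their sense genes. Of the 205 antisense and intronic genes, 174 had a sense gene, by name, that was tested. Of these sense genes, 46 were called (26.4%, with 24 higher and 22 lower), against 21.9% of all genes tested. In 13 pairs both genes were called, in 4 of them (KCNJ2-AS1, SOX21-AS1, GLIS3-AS1 and DOCK9-AS2) with an antisense gene that reached 1 FPKM in a single group. The direction was the same in 12 of the 13, 6 up (UNC5B, FUT8, KCNJ2, SOX21, SH3PXD2A and MMP24, each with its antisense gene) and 6 down (among them SBF2, GLIS3, TMEM9B, LIMD1 and MNX1). The antisense gene alone was called in 14 pairs and the sense gene alone in 33. Across the 174 pairs the log2 fold changes correlated with a Pearson r of 0.605 and a Spearman rho of 0.403. These pairs come from the same 6 libraries and often from overlapping reads, and they include genes that reached 1 FPKM in a single group. The Pearson r was 0.697 over the 110 pairs that share a locus in the table and 0.442 over the other 64. Within the 174 pairs the antisense gene was mostly the less abundant, with a median of 0.197 of the level of its sense gene per length. In 31 of the 174 it lay above its sense gene. Of 199 pairs with an entry for the sense gene, the 174 leave out those with a sense gene under 1 FPKM. In the pairs left out the antisense gene, at 1 FPKM or more by the rule, had to be the higher. The median and the count of 31 therefore depend on that filter.

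**Figure D5:**
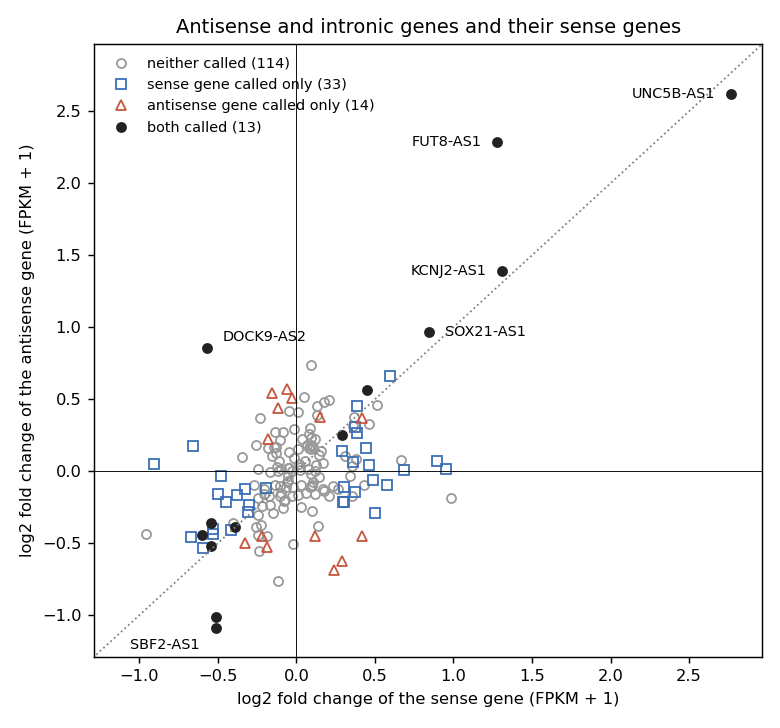
Log2 fold change (FPKM + 1, iGLI2 over iEV) of the sense gene (horizontal) and of its antisense or intronic gene (vertical) for 174 pairs, with filled circles where both were called (13), squares for the sense gene alone (33), triangles for the antisense gene alone (14), open circles for neither (114) and a dotted line of equal change. UNC5B-AS1, FUT8-AS1, KCNJ2-AS1 and SOX21-AS1 stand at the upper right, SBF2-AS1 at the lower left, and DOCK9-AS2 alone of the filled circles lies at the upper left.

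In the remaining pair DOCK9-AS2 was higher and DOCK9 lower. RefSeq calls it DOCK9-DT, for divergent transcript, and it lies on chromosome 13 from 99740073 to 99740879 on the plus strand, with none of its exonic bases on exons of the other strand. It was at 0.332, 0.793 and 0.552 FPKM (iEV 1 to 3) against 1.41, 1.87 and 2.17 FPKM (iGLI2 1 to 3), without overlap (log2 fold change 0.85, SE 0.16). DOCK9-AS2 reached 1 FPKM in iGLI2 cells alone, so it had to be higher there to be included. DOCK9, which encodes an activator of CDC42, was at 22.99, 24.2 and 24.3 FPKM in iEV libraries against 15.3, 15.8 and 16.05 FPKM in iGLI2 libraries and fell (log2 fold change -0.57, SE 0.05, adjusted p = 0.00153).

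Several sense genes changed with no change called opposite them, and the difference within a pair was not tested. VIM, which encodes the intermediate filament vimentin of mesenchymal cells, rose from 22.8 ± 1.02 to 43.9 ± 9.06 FPKM (SD, n = 3, log2 fold change 0.90, SE 0.15, adjusted p = 0.00997). VIM-AS1 was at 7.51, 5.59 and 7.28 FPKM in iEV libraries against 11.8, 5.70 and 5.31 FPKM in iGLI2 libraries, with iGLI2 replicate 1 above all other libraries and the groups overlapping (log2 fold change 0.07, SE 0.29, adjusted p = 0.881, 95% confidence interval -0.63 to 0.78). CBR3, a carbonyl reductase gene, rose (log2 fold change 0.95, adjusted p = 0.000905), while CBR3-AS1 was at 4.55 ± 0.413 FPKM (iEV) against 4.63 ± 0.677 FPKM (iGLI2, SD, n = 3, log2 fold change 0.02, 95% confidence interval -0.25 to 0.28). RAB30, a small GTPase gene, fell (log2 fold change -0.91, adjusted p = 0.0179), and RAB30-AS1 was at 8.29 ± 0.608 FPKM (iEV) against 8.68 ± 1.56 FPKM (iGLI2, SD, n = 3) with a 95% confidence interval -0.28 to 0.37 for its log2 fold change. These 3 pairs were picked for illustration after their values were seen.

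In the annotation used (GENCODE 44 on GRCh37), 295 of the 302 genes were found. Of these, 21 have at least 50% of their exonic bases on exons of the other strand, 190 have some (the 21 included) and 105 have none. Calls were made in 22 of the 105 genes with none (21.0%), 16 higher and 6 lower, and in 4 of the 21 genes with at least 50% (19.05%), 3 higher and 1 lower, against 21.9% of all genes tested. These 4 are FUT8-AS1, LIMD1-AS1, CERS6-AS1 and LINC00880, at 54.2%, 71.6%, 69.6% and 65.1%, and reads on the shared bases cannot be assigned to a strand. Within 1000 bases, 64 genes start head to head with a protein-coding gene, and 6 of the 64 were called (9.38%, against 15.6% of the 302 and 21.9% of all genes tested).

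The nearest tested protein-coding gene on the same chromosome was found for each of the 97 LINC and single-name genes, at a median distance of 25.6 kb between loci. Of these neighbours 24 were called (24.7%, against 21.9% of all genes tested), and in 9 pairs both genes were called. The 9 include LINC01468, LINC01389 and LINC01213, which reached 1 FPKM in a single group and so had to differ to be included. DKK1, which encodes a secreted inhibitor of Wnt signalling, is the neighbour of LINC01468 at 133220 bases. DKK1 was at 54.5 ± 12.9 FPKM (iEV) against 112 ± 6.45 FPKM (iGLI2, SD, n = 3, log2 fold change 1.05, adjusted p = 0.0117). EPB41L1, a membrane skeleton gene and the neighbour of LINC00657 at 40544 bases, was at 17.3 ± 2.34 FPKM (iEV) against 58.5 ± 9.96 FPKM (iGLI2, SD, n = 3, log2 fold change 1.70, adjusted p = 0.00135). CAPRIN2, the neighbour of LINC00941 at 41167 bases, was at 4.38 ± 0.25 FPKM (iEV) against 8.06 ± 0.440 FPKM (iGLI2, SD, n = 3, log2 fold change 0.75, adjusted p = 0.00133). FOXD2, a forkhead transcription factor gene that shares the table's locus with LINC01389, was at 0.515 ± 0.0599 FPKM (iEV) against 1.83 ± 0.386 FPKM (iGLI2, SD, n = 3, log2 fold change 0.89), and also reached 1 FPKM in iGLI2 cells alone. LINC00174 rose with TPST1, a protein sulfation gene at 15593 bases (log2 fold change of TPST1 0.69). TSC22D2, the neighbour of LINC01213 at 168130 bases, fell (log2 fold change -0.34). In the other 3 pairs the directions were opposite, and the loci lay farther apart than the median. LINC01091 fell and SPRY1, an inhibitor of receptor tyrosine kinase signalling at 249025 bases, rose (log2 fold change 0.34, adjusted p = 0.0433). LINC00152 fell and KRCC1, at 505692 bases, rose (0.26). LINC00116 fell and MALL, a gene of the MAL family of membrane proteins at 94963 bases, rose (0.84). Across the 97 pairs, those of genes that reached 1 FPKM in a single group included, the Pearson r of the log2 fold changes was 0.25 and the Spearman rho 0.241.

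Some names given to noncoding genes now lead to a protein-coding entry. RefSeq lists 13 of the 302 names under such an entry, and 5 of these 13 were called (38.5%, against 21.9% of all genes tested). Some of the 13 encode small proteins, while others, such as HNRNPU-AS1 (HNRNPU), TNRC6C-AS1 (TMC6) and LINC00341 (SYNE3), are matches of a name to a gene of a large protein that has a separate entry in the table. LINC00998 (SMIM30) was at 35.9, 36.7 and 36.1 FPKM (iEV 1 to 3) against 49.1, 46.7 and 45.7 FPKM (iGLI2 1 to 3). The iEV libraries lay within 1 FPKM of each other and below every iGLI2 library, and LINC00998 rose (log2 fold change 0.37, SE 0.06, adjusted p = 0.00726). LINC00116 (MTLN), which encodes a microprotein of the inner mitochondrial membrane, was at 6.17, 6.55 and 7.06 FPKM in iEV libraries against 4.83, 5.50 and 5.41 FPKM in iGLI2 libraries and fell (log2 fold change -0.28, SE 0.08, adjusted p = 0.0476), a call that was lost with each library left out (adjusted p = 0.0600 to 0.163) and with the short RNA genes left out (0.0745). TNRC6C-AS1 was at 12.7, 13.7 and 13.7 FPKM in iEV libraries against 19.5, 20.7 and 20.7 FPKM in iGLI2 libraries and rose (log2 fold change 0.57, SE 0.06, adjusted p = 0.00206). MMP24-AS1 (MMP24OS) rose from 14.0 ± 0.819 to 16.9 ± 0.854 FPKM (SD, n = 3, log2 fold change 0.25, SE 0.07, adjusted p = 0.0479), a call also lost with each library left out, and LINC00341, whose locus lies 7404 bases from that of SYNE3, rose by 0.44 on the log2 scale (adjusted p = 0.0252). Of a list of 9 LINC names with a described microprotein, 5 were tested, and LINC00998 rose, LINC00116 fell, and LINC00493, LINC01420 and LINC00467 did not pass the test.

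Long noncoding RNA genes whose names fall outside the rule were followed through a list of 90 names, of which 39 were tested. Of these, 4 were called higher and 6 lower (25.6%, against 21.9% of all genes tested), with a median log2 fold change of -0.07. LUCAT1, first described in lung cancer, was at 0.999, 1.69 and 1.36 FPKM in iEV libraries against 4.83, 3.76 and 2.96 FPKM in iGLI2 libraries and rose (log2 fold change 1.04, SE 0.18, adjusted p = 0.0117). SOX2-OT, which spans the gene of the transcription factor SOX2, was at 0.200, 0.445 and 0.538 FPKM in iEV libraries against 1.80, 1.70 and 1.62 FPKM in iGLI2 libraries (log2 fold change 0.96, SE 0.12), and reached 1 FPKM in iGLI2 cells alone. MIR31HG, the host gene of miR-31, rose by 0.71 on the log2 scale and FTX by 0.51 (adjusted p = 0.00413 and 0.0186). FLJ22447 had the largest change of the list. It was at 17.5, 30.8 and 27.5 FPKM (iEV 1 to 3) against 2.64, 3.78 and 4.11 FPKM (iGLI2 1 to 3), with the groups far apart, and fell (log2 fold change -2.52, SE 0.23, adjusted p = 0.00142). NRAV, an RNA of the antiviral response, DLEU1, PVT1 and CRNDE fell by 0.73, 0.54, 0.44 and 0.27 on the log2 scale (adjusted p between 0.00516 and 0.0274). TUSC8, called lower, reached 1 FPKM in iEV cells alone (log2 fold change -0.52). The growth-arrest and snoRNA host genes ZFAS1, GAS5 and SNHG5, the most abundant on the list at 543, 445 and 415 FPKM, had log2 fold changes of 0.04, -0.03 and -0.06, and none was called.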

How the data were processed

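RNA was sequenced from 3 YAPC-iEV and 3 YAPC-iGLI2 libraries, made with a kit that does not mark strand. The authors trimmed the reads with Trimmomatic and aligned them to hg19, and the submitters' processing notes name TopHat2 and Cuffdiff 2.1.1. The annotation and the scaling between libraries are not given in the sources used here. The deposited table names no unit, and its values were read as FPKM from their form and totals. Reads cannot be counted from FPKM, so the depth is unknown and no counting error or detection limit is given.

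Of 27024 entries, 1252 outside the primary chromosomes were left out, as were 330 that share a name with an entry of higher mean, which left 25442 genes. The 12493 with a mean of at least 1 FPKM entered limma 3.58.1 (R 4.3.3) on the log2(FPKM + 1) scale, a two-sided test with an intensity trend, no term but the condition, and Benjamini-Hochberg adjustment over all of them. The smallest two-sided p of an exact permutation test with 3 libraries a group is 0.1. The test was tried on simulated data. The members, the gene lists, the tests and the alternatives were chosen with earlier results of these data known.

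Named are the 15 largest called changes in each direction, the 10 genes with the highest mean, the genes the rule lists by name, those at the threshold, a list of LINC microproteins, genes called against a called sense gene, and the 5 largest called changes in each direction of the list of other long noncoding RNAs. A gene that this rule covers is not reported here. Other genes were named after their values were seen. Gene positions are from GENCODE 44 on GRCh37 (295 genes matched, 66 under another name), and promoter sequences from RefSeq on GRCh38.p14 (233 matched). Alternatives were upper quartile and quantile scaling, short RNA genes left out with rescaling, a pseudocount of 0.1, no filter or a mean of 5 FPKM, no trend, blocks by replicate number or by the digit in the sample code, stricter thresholds and each library left out. Tables and plots were made with Python 3.11.15, pandas 2.3.3 and matplotlib 3.10.9.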

Additional observations from a re-analysis of the deposited data

How the results depend on the processing

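The reported test called 27 long noncoding RNA genes higher and 20 lower, and 2742 genes in all, 46.0% of them higher. Leaving out the short RNA genes and rescaling gave 57 higher of 301 tested, and 3019 of 12169 genes in all, with 59.4% of all calls higher. A mean of at least 5 FPKM, which left 88 of the set, gave 13 higher and 8 lower, and 1914 of 9037 genes in all. In both settings the share called in the set was not below that of all genes, unlike in the reported test. With an adjusted p under 0.01 there were 10 higher, 6 lower and 1095 in all, and with at least 2-fold 6, 2 and 527, of which 61.5% were higher. Leaving out single libraries, the set had 13 to 42 higher and 6 to 25 lower, and all genes 1223 to 3753. Upper quartile and quantile scaling, the pseudocount of 0.1, no filter and no trend kept each of these counts within 1.5 times. Of 44 named genes, none reversed under any of these settings. The most lost calls, 18, came without iEV replicate 3.

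Replicate numbers were not taken to pair the libraries. The deviations of same-numbered libraries correlated at 0.204, 0.0919 and 0.0276, and iGLI2 replicate 3 correlated best with iEV replicate 2 (0.117). With the replicate block, 38 genes of the set were higher, 35 lower and 3928 called in all, and 42 of the 47 were called in both fits. A block by the digit in the sample code gave 22 higher and 13 lower. The number of reads behind each FPKM value is unknown, so the part of depth in the lower share of calls at low levels was not tested.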

Other observations

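Some names of long noncoding RNA genes stand in the table only inside entries that merge several genes. Such entries number 24, of which 5 had a mean of at least 1 FPKM. The entry that merges LRRC75A-AS1 with the small nucleolar RNA SNORD49B was at 527, 560.2 and 558 FPKM in the iEV and 514, 505 and 498 FPKM in the iGLI2 libraries, the highest of the 5, and every iGLI2 library lay below every iEV library. The entry that merges LINC01588 and LINC01599 was at 6.10, 7.40 and 5.88 FPKM in the iEV and 3.90, 3.94 and 4.13 FPKM in the iGLI2 libraries, also without overlap. The entry that merges LINC01106 and LINC01123 was at 2.78, 3.07 and 3.34 FPKM in the iEV and 2.34, 1.78 and 1.93 FPKM in the iGLI2 libraries, again without overlap and with the iGLI2 libraries lower. The entry that merges LINC00969 with SDHAP2 was at 3.61, 3.30 and 4.54 FPKM in the iEV and 3.16, 4.16 and 3.76 FPKM in the iGLI2 libraries, and the groups overlapped. The entry that merges LIPE-AS1 with an unnamed locus was at 1.34, 0.643 and 0.634 FPKM in the iEV and 1.12, 2.16 and 1.66 FPKM in the iGLI2 libraries, and the groups overlapped as well. Which of the merged genes the reads came from cannot be told apart.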
